A study of Homo sapiens with 6 samples.

Results

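The BCL2 family decides whether a cell keeps the outer membrane of its mitochondria closed. It was followed here through 10 of its genes in a human myeloma line, JJN3, in which a short hairpin RNA (shRNA) lowered CKS1B or a scrambled shRNA served as control. The members were BCL2, MCL1, BCL2L1, BCL2L2 and BCL2A1, which hold back cell death, and BAX, BAK1, BCL2L11, PMAIP1 and BBC3, which promote it. All probe sets that the platform annotation ties to a member and to no other gene were taken, matched by Entrez identifier. This gave 29 of the 54613 probe sets other than controls, 17 for the 5 anti-apoptotic genes and 12 for 4 pro-apoptotic genes. BBC3 (PUMA) had 0 such probe sets and is not described further. Another 2 probe sets name a member together with other genes and were not used.

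The 6 arrays are Affymetrix U133 Plus 2.0 arrays hybridised with total RNA, 3 with the CKS1B shRNA and 3 with the scrambled shRNA, both brought in by viral transduction. All 6 arrays are of this 1 cell line, and the titles give each group the letters A, B and C. The title of scrambled array B holds a further word that no label explains. Whether each array had its own culture is not in the labels. The p-values therefore measure only how far these arrays spread, which may be technical.

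In the intrinsic death pathway BAX and BAK1 form pores in the outer mitochondrial membrane, and cytochrome c leaves through them to start the caspase cascade. The anti-apoptotic proteins bind BAX, BAK1 and their activators in a groove. BH3-only proteins such as BCL2L11 (BIM), PMAIP1 (NOXA) and BBC3 occupy that groove and free the effectors. Myeloma cells are known for their reliance on MCL1, and some also on BCL2 or BCL2L1. Much of the regulation of these proteins, above all of MCL1 and NOXA, acts on protein stability, which RNA arrays do not measure.

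Levels are MAS5 intensities on a linear scale in arbitrary units. Each difference subtracts the scrambled from the CKS1B shRNA mean after log2(intensity + 16), a scale that understates changes of dim probe sets, and comes from limma fitted over all 54613 probe sets. Levels of different probe sets are not compared with each other, since each probe set has its own response.

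CKS1B, the target, read 7294 to 8441 on the scrambled arrays and 269 to 828 on the CKS1B shRNA arrays, a log2 difference of -4.02 (SE 0.44, adjusted p = 0.122 in limma). By exact permutation of the arrays (two-sided) p was 0.1, and 3 against 3 can give no smaller value. CKS1B shRNA array B stood apart: its log2 values correlated with those of the other arrays at 0.577 to 0.610, against 0.879 to 0.958 among the other 5. Its ratio of 3' to 5' actin control probe sets was 12.4, against 1.05 to 2.93 elsewhere. Each result on the members is therefore given with 6 arrays and with the 5 arrays left without it, where CKS1B differed by -3.63 (adjusted p = 3.15e-05). Of the plasma cell markers all 8 were named on the array, and their summed intensity was 38499 to 46766 over the 6 arrays. Single markers went opposite ways on array B, where TNFRSF17 (BCMA) read 409 against 4476 to 8733 elsewhere and POU2AF1 read 30311 against 11471 to 17267. The sum on that array was 45572, most of it from POU2AF1, so the narrow range of the sum does not show steady markers. MZB1 was lower with the CKS1B shRNA without overlap, at 443 to 2080.3 against 2403 to 3429 (adjusted p = 0.9999 in limma). POU2AF1 was higher without overlap, at 15392 to 30311 against 11471 to 14602 (adjusted p = 0.9999 in limma). By the brightest probe set of each gene, 4.69% of all genes were lower and 4.33% higher without overlap. Of the B cell markers MS4A1 (CD20) read 4578 to 7996 and PAX5 42.9 to 287. The summed T cell markers CD3D, CD3E and CD3G were 173 to 828 on 5 arrays and 3310 on CKS1B shRNA array B. The myeloid sum was 654 there against 163 to 288 elsewhere, and the stromal sum 1534 against 424 to 1136. Single markers within these sums did not move alike. CD14 read 438 there against 8.2 to 73.3 elsewhere, and LYZ 91.2 against 61.3 to 85.9. CSF1R, at 125, lay inside the 68.3 to 202 of the other arrays. COL1A1 read 1302 against 68.7 to 552, but COL1A2 was lowest there, at 72.7 against 220 to 463. COL3A1, at 159, lay inside 20.4 to 262 on array B. Dim probe sets in general read high on that array, and the part of other cells in its values was not tested.

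No member passed the threshold between the groups. Of the 29 probe sets 0 passed an adjusted p of 0.05 in limma with 6 arrays, where 0% of all probe sets did, and 0 passed an unadjusted p of 0.05, where 1.77% did. The smallest unadjusted p was 0.144, for PMAIP1. With 5 arrays 0 passed either, against 0.0201% of all probe sets by adjusted and 5.66% by unadjusted p. The 95% intervals of all 29 differences included 0, with 6 and with 5 arrays, and they reached to either side by a median of 1.28 log2 units with 6 arrays and 0.90 with 5. Differences ran from -1.03 to 0.80 with 6 arrays, 14 of them above and 15 below 0. Their median was -0.005, against 0.123 over all probe sets. These intervals do not show equal levels: they reached down to -2.68 and up to 2.61.

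In only 1 member probe set did all 3 arrays of a group lie above all 3 of the other. BCL2L11 probe set 222343_at was higher with the CKS1B shRNA, a pattern found in 4.17% of all probe sets, and 0 members were lower in this sense, against 3.60%. Without CKS1B shRNA array B 3 were higher and 0 lower, against 7.99% and 13.7% of all probe sets. These 3 were 222343_at, MCL1 200797_s_at and BAK1 203728_at.

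**Figure D1:**
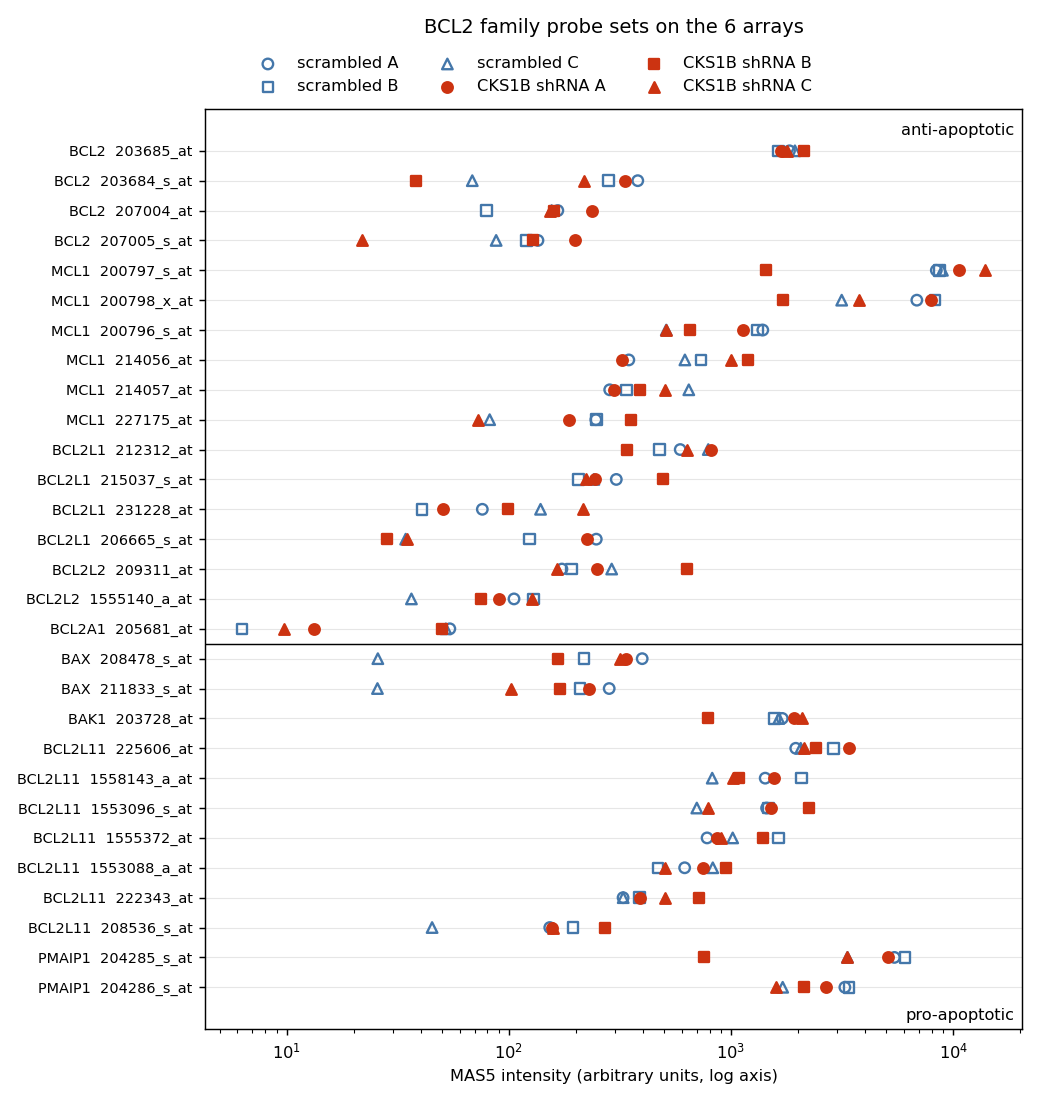
MAS5 intensity of the 29 BCL2 family probe sets on a log axis, with open blue symbols for the scrambled and filled red symbols for the CKS1B shRNA arrays, and 1 symbol shape for each letter. CKS1B shRNA array B (red squares) is the lowest of the 6 arrays in 7 probe sets and the highest in 9, and only BCL2L11 222343_at has all red symbols to the right of all blue ones.

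MCL1, the short-lived guardian on which many myelomas depend, was read by 6 probe sets. Its brightest, 200797_s_at, read 8393, 8692 and 8939 with the scrambled shRNA (letters A, B and C) and 10656, 1441 and 13942 with the CKS1B shRNA, in the same order, which is kept throughout. The scrambled arrays lay close together, shRNA arrays A and C lay above all of them, and shRNA array B lay 6.02-fold below their mean. The log2 difference was -0.53 (95% interval -2.31 to 1.24, adjusted p = 0.9999) with 6 arrays and 0.49 (-0.04 to 1.02, adjusted p = 0.898) with 5. Quantile normalization of the 5 arrays gave 0.15.

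The other 5 MCL1 probe sets did not repeat that pattern. Probe set 200798_x_at, of a class that may bind related transcripts, read 6858, 8290 and 3148 with the scrambled and 7938, 1706 and 3764 with the CKS1B shRNA. Both of its letter C arrays read below both of its letter A arrays, and its difference was -0.04 with 5 arrays. Probe set 200796_s_at likewise read 1389, 1317 and 511 against 1128, 652 and 508. In 214056_at, 214057_at and 227175_at the groups overlapped as well, with differences of 0.42, -0.03 and -0.005 with 6 arrays and 0.07, -0.04 and -0.49 with 5. In none of these 5 did shRNA arrays A and C both lie above all scrambled arrays, as they did in 200797_s_at.

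BCL2, the founding member and the target of venetoclax in the clinic, has 4 probe sets. Its brightest, 203685_at, read 1832, 1639 and 1938 with the scrambled and 1679.7, 2137 and 1795 with the CKS1B shRNA. The groups overlapped, with shRNA array B above all scrambled arrays, and the difference was 0.05 (-0.73 to 0.82) with 6 arrays and -0.05 (-0.58 to 0.48) with 5. Of its 3 other probe sets, 203684_s_at read 380.2, 280.4 and 68.4 against 333, 38.2 and 217, low on scrambled array C and lower still on shRNA array B. Its difference turned from -0.39 with 6 arrays to 0.41 with 5. Probe set 207004_at gave 0.44 and 0.52, and 207005_s_at gave -0.29 and -0.52.

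BCL2L1 (BCL-XL), which guards BAK1 beside MCL1, overlapped in all 4 of its probe sets. The brightest, 212312_at, read 590.3, 476 and 789 with the scrambled and 812, 339 and 631 with the CKS1B shRNA. Array B was again the lowest, and the difference was -0.11 (-1.07 to 0.84) with 6 arrays and 0.24 (-0.46 to 0.93) with 5. Probe set 206665_s_at read 247, 124 and 34.3 against 224, 28.3 and 34.8, with nearly equal values on both arrays of letter C.

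BCL2L2 (BCL-W) read 173, 191 and 290.1 through 209311_at with the scrambled shRNA, and 248, 632 and 164 with the CKS1B shRNA. Array B lay above the scrambled range and array C just below it. The difference of 0.45 (-0.83 to 1.74) with 6 arrays was -0.07 (-1.09 to 0.95) with 5. Its other probe set, 1555140_a_at, lay below the array's median on all 6 arrays. It read 105, 129 and 36.4 against 89.8, 74.9 and 127, with differences of 0.19 with 6 arrays and 0.34 with 5. BCL2A1 (BFL-1), a target of NF-kB in B cells, has a single probe set. It read 54.2, 6.3 and 52.0 against 13.3, 50.0 and 9.7, below the array's median on all 6 arrays. Its difference was -0.37 (-2.07 to 1.34) with 6 arrays and -0.79 with 5, and whether it was detected is unknown, since the values come without detection calls.

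Among the effectors, BAK1 was read by 203728_at alone. It gave 1699.8, 1566 and 1640.2 on the scrambled arrays and 1920.2, 783 and 2079.6 on the CKS1B shRNA arrays. As for MCL1 200797_s_at, arrays A and C lay above the narrow scrambled range and array B below it. The difference was -0.16 (-1.11 to 0.80, adjusted p = 0.9999) with 6 arrays and 0.29 (-0.24 to 0.81, adjusted p = 0.954) with 5.

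BAX, the other effector, had 2 probe sets with like patterns. Probe set 208478_s_at read 398, 218 and 25.7 with the scrambled and 338, 167 and 316 with the CKS1B shRNA. The other, 211833_s_at, read 283, 208 and 25.6 against 230.2, 169 and 103. In both the lowest value was that of scrambled array C, and the other 5 arrays overlapped. The differences were 0.80 (-1.001 to 2.61) and 0.32 with 6 arrays, and 1.11 (-0.45 to 2.66) and 0.28 with 5. Without scrambled array C the first was -0.17. On that array 208478_s_at lay -2.90 log2 units from the other scrambled arrays, while the 1000 probe sets nearest to it in scrambled mean had a median of 0.63.

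BCL2L11 encodes BIM, a BH3-only protein able to bind every anti-apoptotic member, and has 7 probe sets. The brightest, 225606_at, read 1955, 2899 and 2058 with the scrambled and 3396, 2419 and 2119 with the CKS1B shRNA. The groups overlapped, and the difference was 0.19 (-0.68 to 1.06) with 6 arrays and 0.24 (-0.36 to 0.84) with 5. Probe set 222343_at, the only one without overlap, read 327, 388 and 327 against 389, 719 and 503. Its lowest shRNA array, A, exceeded its highest scrambled array by little more than 1 unit of intensity. The difference was 0.57 (-0.33 to 1.47, adjusted p = 0.9999) with 6 arrays and 0.34 with 5, and centring each array on its median made the groups overlap.

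The remaining 5 BCL2L11 probe sets had differences of -0.17 to 0.67 with 6 arrays and -0.31 to 0.43 with 5. The highest, 208536_s_at, again was lowest on scrambled array C, at 45.1, with the remaining 5 arrays at 153 to 270.1. Over the 7 probe sets 5 were above and 2 below 0 with 6 arrays, and 3 above and 4 below with 5.

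PMAIP1, or NOXA, is a BH3-only protein that binds MCL1 in particular and sends it to the proteasome. Both of its probe sets were below 0 with 6 and with 5 arrays. Probe set 204285_s_at read 5435, 6078 and 3341 with the scrambled and 5074, 754 and 3313 with the CKS1B shRNA, and 204286_s_at read 3253, 3403 and 1707 against 2681, 2123 and 1596. Arrays of letter C were low in both groups, and in both probe sets shRNA array A fell between the lowest and highest scrambled values, with array C just under the lowest. The difference of 204285_s_at was -1.03 (-2.48 to 0.41, adjusted p = 0.9999) with 6 arrays and -0.23 (-0.85 to 0.40) with 5. The other gave -0.35 and -0.36.

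**Figure D2:**
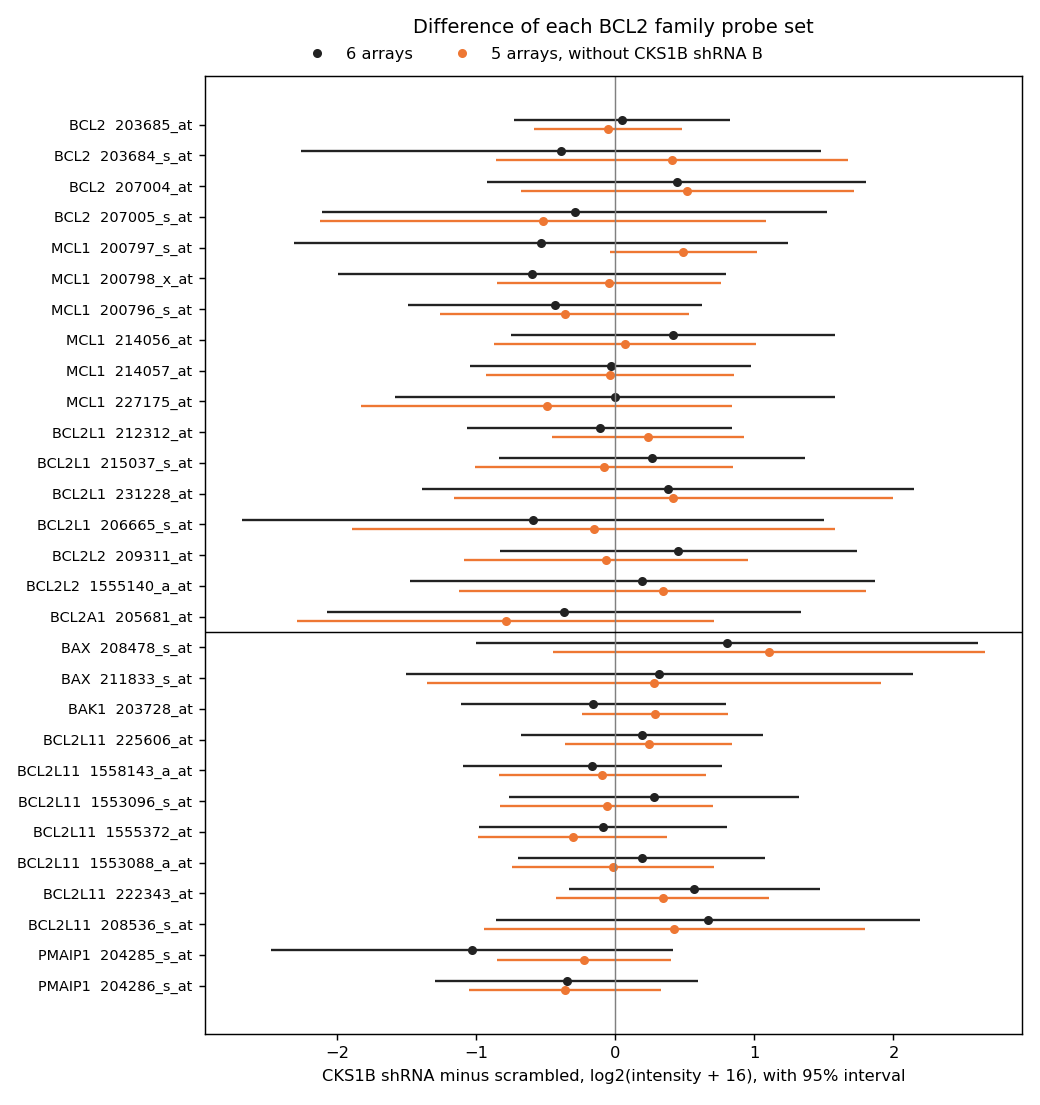
Log2 difference, CKS1B shRNA minus scrambled, of each BCL2 family probe set, with its 95% interval from limma, for 6 arrays (black) and for the 5 arrays without CKS1B shRNA array B (orange). Every interval crosses 0, and 9 of the 29 points change side when array B is left out.

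Pro- and anti-apoptotic genes were also set against each other by side. With the brightest probe set for each gene, the deviation from the scrambled mean was computed on every array, a scrambled array being set against the other 2. The median of the 4 pro-apoptotic genes minus that of the 5 anti-apoptotic genes was 0.20, -0.72 and 0.13 with the CKS1B shRNA. It was 0.23, 0.74 and -1.05 with the scrambled shRNA. All 3 shRNA values lay inside the range of the scrambled arrays, whose lower end was scrambled array C alone. Without that array shRNA array B was at -1.21, outside the scrambled values of -0.18 and 0.18, while shRNA arrays A and C stayed inside at -0.11 and -0.09. After quantile normalization shRNA array B was at -0.56, also outside the scrambled range of -0.47 to 0.72. With the mean of the probe sets of each gene it was at -0.12, inside the scrambled range of -0.34 to 0.58. With means over genes it was at -0.62, inside -1.41 to 0.95. Without scrambled array A or B it was at -0.78 and -0.34, also inside. On shRNA array B the anti-apoptotic median was 0.25 and the pro-apoptotic median -0.48, while all probe sets together had a median of 0.80. That array also differed by brightness, as described below. The probe sets nearest in scrambled mean to those of BAX, BAK1, BCL2L11 and PMAIP1 had median deviations of 1.04, -0.74, -1.08 and -1.73 there. For BCL2, MCL1, BCL2L1, BCL2L2 and BCL2A1 these medians were -0.79, -2.27, 0.0007, 0.76 and 1.98. The part of brightness in the gap between the sides was not tested.

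Between proteins that bind each other, the ratio of the transcripts was followed within each array and set relative to the mean of all scrambled arrays. Here, unlike above, a scrambled array was part of its own reference, which narrows the scrambled range. For BCL2L11 over MCL1 it was 0.28, 2.67 and -0.78 log2 units on shRNA arrays A, B and C, with scrambled arrays at -0.18 to 0.35. For PMAIP1 over MCL1 it was -0.22, -0.07 and -1.22, with scrambled arrays at -0.56 to 0.34. For BAX over BCL2 it was 1.25, -0.05 and 1.06, where the scrambled arrays themselves spanned -2.04 to 1.35. Of the 6 pairs examined, which also included BAK1 with MCL1, BAK1 with BCL2L1 and BCL2L11 with BCL2, in 0 did the groups separate.

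**Figure D3:**
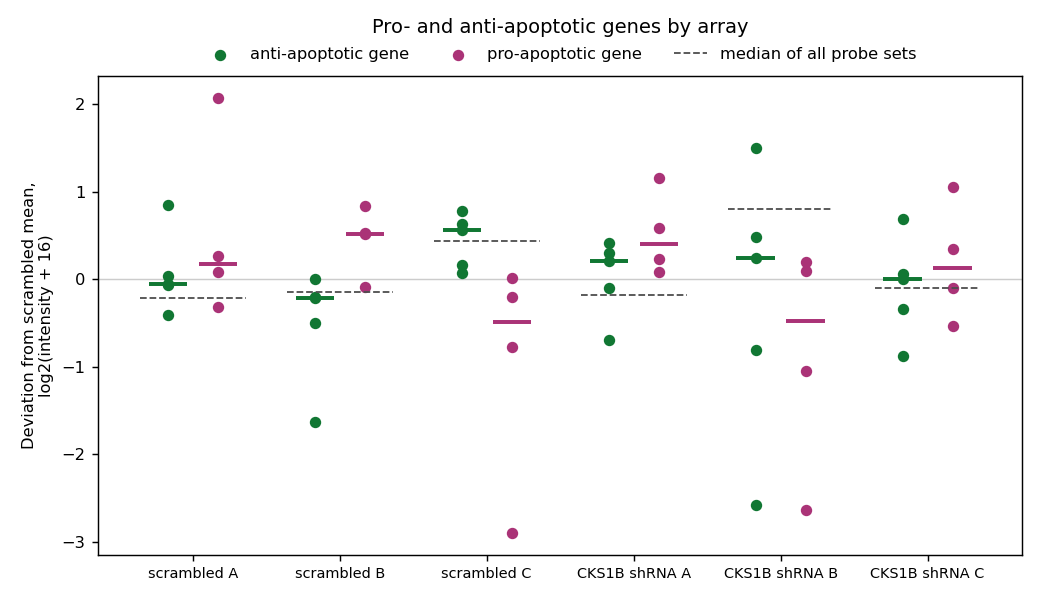
Deviation of each gene from the scrambled mean on the log2(intensity + 16) scale, by array, for 5 anti-apoptotic (green) and 4 pro-apoptotic genes (purple), with the median of each side as a bar and that of all probe sets as a dashed line. The pro-apoptotic bar lies above the anti-apoptotic one on scrambled arrays A and B and CKS1B shRNA arrays A and C, and below it on scrambled array C and CKS1B shRNA array B.

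Array B also differed by brightness. In the medians over the whole table, probe sets bright on the scrambled arrays read low on CKS1B shRNA array B and dim ones read high. MCL1 200797_s_at lay at -2.58 log2 units there, and the 1000 probe sets nearest in scrambled mean had a median of -2.27. PMAIP1 204285_s_at lay at -2.64 against -1.73, and BAK1 at -1.05 against -0.74. In 20 of the 29 probe sets the deviation was within 1 log2 unit of that of its neighbours. It was more than 1 unit above in 4, among them BCL2L11 1553096_s_at (0.96 against -0.47) and BCL2 203685_at (0.25 against -0.79). It was more than 1 unit below in 5, led by BCL2 203684_s_at (-1.99 against 0.79) and BCL2L1 206665_s_at (-1.47 against 1.19). Probe sets of the same gene could go opposite ways. With 6 arrays this held for 4 of the 7 members with several probe sets, and for 61.1% of all 10523 genes with several. With 5 arrays it held for 5 of the 7 and for 56.5% of the genes.

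A second pattern concerned the arrays of letter C. In 11 of the 29 member probe sets both arrays of letter C read below scrambled arrays A and B and CKS1B shRNA array A, and in 2 they read above all 3. Over all probe sets the shares were 10.6% and 23.4%, and over those at or above the median brightness 18.0% and 17.4%. The 11 were 3 of MCL1, 2 each of BCL2, BCL2L11 and PMAIP1, and 1 each of BCL2L1 and BAX. MCL1 200798_x_at differed by -1.12 log2 units between scrambled arrays C and A, and by -1.07 between the same letters with the CKS1B shRNA. The actin 3' to 5' ratio was 1.66 and 2.93 on the arrays of letter C and 1.05 to 1.15 on those 3 arrays. Its part in these values was not tested.

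Within letters A and C, CKS1B shRNA minus scrambled had the same sign for 15 probe sets, 8 higher and 7 lower, and opposite signs for 14. Over all probe sets 19.2% were higher, 36.9% lower and 43.7% opposite. MCL1 200797_s_at gave 0.34 in letter A, -2.58 in B and 0.64 in C. BAK1 gave 0.17, -0.98 and 0.34, and BAX 208478_s_at gave -0.23, -0.36 and 2.99. Only 3 probe sets were higher in every letter and 3 were lower, which were 10.3% each, beside 11.4% and 9.38% of all probe sets. The labels do not say what a letter stands for.

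**Figure D4:**
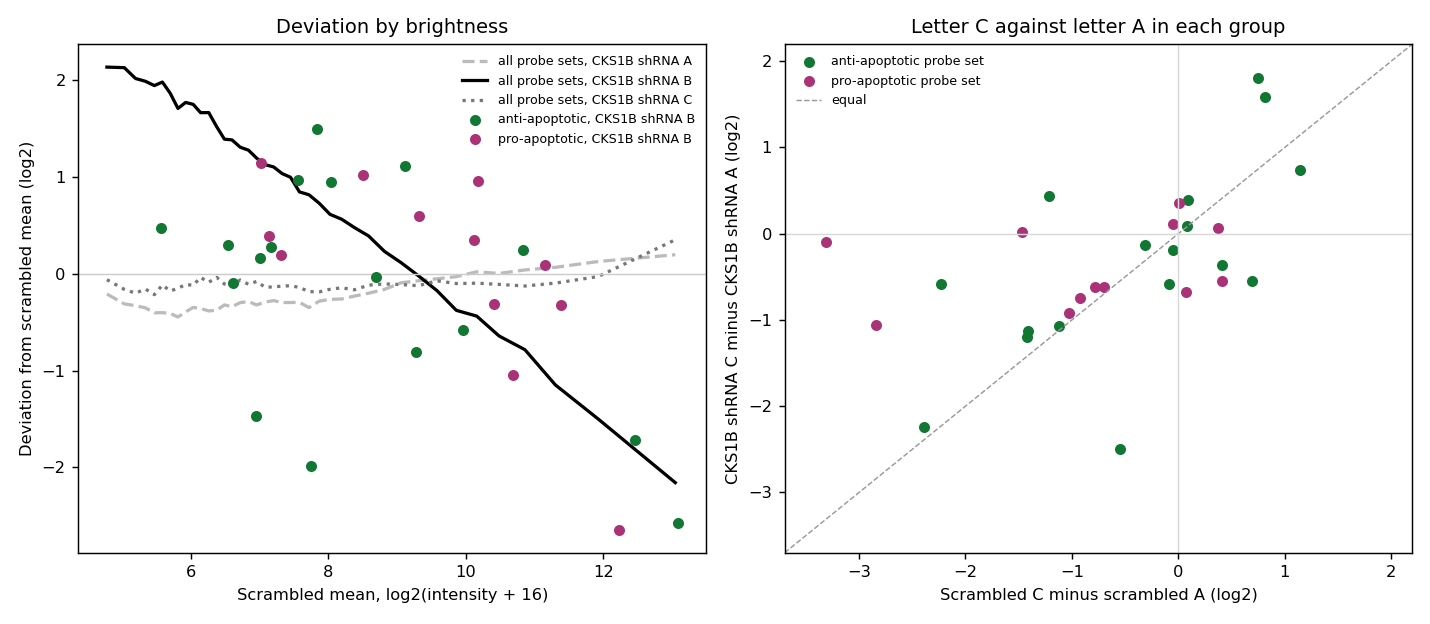
Left, deviation from the scrambled mean against scrambled brightness, with lines for the median of all probe sets on each CKS1B shRNA array and points for the BCL2 family on array B, where PMAIP1 204285_s_at at -2.64 and MCL1 200797_s_at at -2.58 are the lowest. Right, letter C minus letter A within the scrambled (x) and the CKS1B shRNA group (y), where the 11 probe sets low on both arrays of letter C lie below 0 on both axes, on the log2(intensity + 16) scale.

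Other genes of the pathway were described from lists by their brightest probe set, and 0 of them passed an adjusted p of 0.05 in limma. Across all 19777 named genes 4.33% did not overlap between the groups and were higher with the CKS1B shRNA, and 4.69% were lower. Of 13 further BCL2 family genes 7 were above and 6 below 0, with a median of 0.37 that was -0.05 without array B, against 0.04 and -0.11 over all genes. BMF, a BH3-only protein held at the cytoskeleton, was the 1 without overlap, at 806, 759.8 and 779.7 against 843, 1416 and 1165 (log2 0.51, adjusted p = 0.9999). BAD, the BH3-only sensor of growth factor signalling, read 445, 527 and 381 against 815, 452 and 1859.6 (log2 0.96, and 1.43 without array B with an adjusted p of 0.558).

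Of 10 enzymes and partners that act on MCL1 and BIM, 3 were above and 7 below 0, with a median of -0.34 that was -0.26 without array B. CDK9, the kinase that keeps short-lived transcripts such as MCL1 in production, read 634, 419 and 498 against 389, 236 and 313, without overlap (log2 -0.70, adjusted p = 0.9999). USP13, a deubiquitinase of MCL1, also did not overlap (log2 -1.08, and -0.22 without array B). USP9X, another such enzyme, gave -1.31 and -0.30.

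Of 13 genes of the mitochondrial steps 3 were above and 10 below 0 with 6 arrays, and 7 and 6 without array B. CYCS, cytochrome c itself, read 16076, 14967 and 16199 against 20071, 41828 and 27995, without overlap (log2 0.86, adjusted p = 0.9999, and 0.59 without array B). AIFM1, a flavoprotein of the intermembrane space, read 2185, 2399 and 2477 against 1893, 944 and 1886, also without overlap (log2 -0.64, and -0.31). Of 11 transcription factors known to act on these genes 2 were above and 9 below 0, and 5 and 6 without array B. With 6 arrays 0 of them were higher and 1 lower without overlap. FOXO1, which can induce BIM, gave 0.62 (0.36 without array B), ATF4 gave -0.72 (-0.27) and MYC -2.22 (-0.11), MYC reading 124 on array B against 10254 to 13003 elsewhere.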

How the data were processed

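The deposited values are linear MAS5 intensities, as the submitters' processing notes name the method. Its version and settings were not given in the sources used here. They had the same 2% trimmed mean, 500.02 to 500.06, on all arrays. Of 54675 probe sets, 62 controls were left out. Names came from the platform annotation: 41091 probe sets had 1 symbol, 1801 several and 11721 none. Of those with 1 symbol, 41037 probe sets had an Entrez identifier found in RefSeq (GRCh38.p14), which gave current symbols. Some listed genes are not reported here.

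Values were turned into log2(intensity + 16) without a filter, since all member probe sets were to be kept (23 of 29 would pass a filter at the median, 7.34). Groups were taken from the titles. The fit used limma 3.58.1 in R 4.3.3 (lmFit, eBayes with trend) over 54613 probe sets with Benjamini-Hochberg adjustment, and was tested on simulated data. Figures used matplotlib 3.10.9. All 10 members, and in each list up to 3 genes of smallest p in each direction, could be named. Members, lists and tests were chosen with earlier results of these data known. Alternatives were pseudocounts of 1 and 64, a median filter, 1 probe set for each gene, centring, quantile normalization, the letter as a block, no trend, array weights, and leaving out arrays or letters. The comparison by side was also run with means over probe sets or over genes. Those that combine a change with the loss of CKS1B shRNA array B, and the values within letters, were added after the data were seen. The number of arrays limits the precision of all values.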

Additional observations from a re-analysis of the deposited data

How the results depend on the processing

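Under every alternative run, 0 of the member probe sets tested passed, which were 23 of the 29 under the median filter and fewer with 1 probe set for each gene. Scaling moved the median difference of all probe sets from 0.12 to -0.11 after centring and to 0.001 after quantile normalization. The count over all probe sets was 0 except with array weights (86), without both arrays of letter B (16), after quantile normalization of 5 arrays (2) and with the replicate block on 5 arrays (395). Leaving out 1 array gave 0 to 11, the 11 without CKS1B shRNA array B. With the replicate block on 6 arrays it was 0. Whether the arrays of a letter form pairs is not in the labels, though their titles carry consecutive numbers. Their deviations from the group means correlated over probe sets at 0.347, -0.160 and -0.153 for A, B and C. The CKS1B shRNA mean includes array B, which stood apart, so these values cannot tell whether arrays were paired. The main fit took no pairs. CKS1B passed with array weights (-3.62), without letter B (-3.59, also with the replicate block on 5 arrays) and after quantile normalization of 5 arrays (-3.68). Leaving out 1 array gave -4.41 to -3.63. Member probe sets without overlap were 1 higher and 0 lower. The higher count was 0 after centring or with 1 probe set for each gene, 2, 5 and 4 without letters A, B and C, 2 after quantile normalization of 5 arrays, and 1 to 3 without 1 array. The lower count was 1, 2 and 4 without letters A, B and C, and 0 to 3 without 1 array. Over all 54613 probe sets 8149, 5933 and 11822 were higher without letters A, B and C, and 5654, 11321 and 5563 were lower. Without 1 array 3332 to 7269 were higher and 3010 to 7468 lower. Centring gave 2006 and 2175, and quantile normalization of 5 arrays 6079 and 6228. With 1 probe set for each gene, 625 of 12663 were higher and 812 lower.

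Directions of the brightest probe sets turned as follows. BCL2 was -0.19 after centring, -0.12 without letter B or with the replicate block on 5 arrays, -0.0692 after quantile normalization of 5 arrays, and -0.0505 to 0.12 without 1 array. MCL1 was 0.44 with array weights, 0.49 without letter B or with the replicate block on 5 arrays, 0.15 after quantile normalization of 5 arrays, 0.51 without CKS1B shRNA array B and scrambled array C, and -1.14 to 0.49 without 1 array. BCL2L1 in the same order was 0.29, 0.0667, 0.28 and 0.42, and -0.38 to 0.24 without 1 array. BAK1 was 0.25, 0.26, 0.26 and 0.29, and -0.41 to 0.29 without 1 array. BCL2L2 was -0.14 without letter B or with the replicate block on 5 arrays, and -0.0686 to 0.85 without 1 array. BCL2A1 was 0.0808 and 0.15 without letters A and C. BAX was -0.29 without letter C and -0.17 to 1.49 without 1 array. BCL2L11 225606_at was -0.0428 after centring, -0.11 without letter A and -0.00279 to 0.37 without 1 array. PMAIP1 204285_s_at and BCL2L11 222343_at kept their direction under all alternatives run. The size of the PMAIP1 difference did not hold. It was -0.0554 without letter B or with the replicate block on 5 arrays, and -1.59 to -0.23 without 1 array. Except where fewer arrays enter by construction, the cause was not tested.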
